A study of Mus musculus with 30 samples.

Results

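10 of the 55573 genes in the deposited expression tables carry out or control antigen presentation by MHC class I, and their transcripts were followed in retinal pigment epithelium (RPE) and bone marrow-derived macrophages (BMDMs) of wild-type mice and of mice with 3 different knockouts of Mertk, a receptor tyrosine kinase of phagocytes. These 10 genes are B2m, H2-K1, H2-D1, H2-T23, Tap1, Tap2, Tapbp, Psmb8, Psmb9 and Nlrc5. They were chosen by symbol, with earlier results of these data known, and all 10 passed the filter on low values (a mean normalized count of at least 10) in both tissues. B6 WT are C57BL/6 mice with both Mertk alleles intact. Mertk-/-V1 mice lack exon 17 of Mertk, were made in embryonic stem cells of another mouse strain with the neomycin cassette left in place, were then bred to C57BL/6J, and keep DNA of that donor strain around the locus on chromosome 2. Mertk-/-V2 mice lack exon 18, removed in the germ line from a floxed allele by a tamoxifen-induced Cre that was later bred away, and Mertk-/-V3 mice lack exons 3 and 4, cut out by CRISPR/Cas9 in C57BL/6NJ zygotes. Both of these lines carry C57BL/6NJ DNA. Each knockout is a single line that affects every tissue. RPE was pelleted from posterior eyecups on postnatal day 25 without any treatment, from 6 animals each of B6 WT and Mertk-/-V1 and 3 animals each of Mertk-/-V2 and Mertk-/-V3. BMDMs were grown for 7 days in medium conditioned by L929 cells, from 3 mice of each genotype.

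MHC class I molecules carry peptides from the inside of a cell to its surface, where CD8+ T cells and natural killer cells read them. A heavy chain (H2-K1 and H2-D1 in the classical molecules, H2-T23 in the non-classical Qa-1) pairs with the invariant light chain β2-microglobulin, encoded by B2m. The peptides are cut by the proteasome, whose immune form contains the subunits Psmb8 and Psmb9, and are pumped into the endoplasmic reticulum by the transporter made of Tap1 and Tap2, to which tapasin (Tapbp) tethers the empty heavy chain. Nlrc5 is the transactivator that is recruited to class I promoters, and interferon-γ raises the transcription of the whole group. The RPE is part of the blood-retina barrier, whereas macrophages are antigen-presenting cells with abundant class I.

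The 30 libraries held between 14137666 and 34124049 reads assigned to genes. Counts are given as the authors' normalized counts (reads divided by a size factor of the library), and a gene was called where the Benjamini-Hochberg adjusted p of limma, over all genes tested in that comparison, was under 0.05. Differences are on the scale of log2(normalized count + 1), which understates the change of low genes. Mertk itself was lower in Mertk-/-V1 (log2 difference -1.47 in RPE and -1.61 in BMDMs) and Mertk-/-V3 (-2.01 and -1.94), all 4 called. In Mertk-/-V2 it was not lower (0.39 in RPE, not called, and 0.43 in BMDMs, called), and a count over the whole gene does not show the missing exon. RPE libraries carried RPE markers at summed counts of 148900 to 621000, together with transcripts of rods and of leukocytes. In these bulk samples, fewer cells of a type and less RNA per cell cannot be told apart.

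B2m was the most abundant of the 10 transcripts per length in both tissues, and Nlrc5 the least. In B6 WT RPE, B2m had a mean of 272 RPKM (reads per kilobase of transcript, scaled to the depth of the library, 245 to 291 over 6 animals) and ranked 101 of 18822 genes. H2-D1 followed at 67.9 RPKM (34.8 to 102), Tapbp at 39.3 (32.2 to 46.3) and H2-K1 at 33.3 (21.6 to 46.3). The ranges of these 3 overlapped, so that their order did not hold in every animal. H2-T23 was lower, at 12.6 RPKM (6.8 to 19.6), and did not overlap H2-K1 above it or Tap1 below it. Tap1 (4.23 RPKM), Psmb8 (4.04) and Tap2 (4.02) lay within each other's spread, Psmb9 had 1.42 RPKM (0.528 to 2.63), and Nlrc5 had 0.258 RPKM (0.146 to 0.366), below every other member in every animal's range.

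BMDMs of B6 WT mice had the same gene at either end but a clearer order. B2m had 797 RPKM (745 to 874, n = 3), H2-D1 371 (359 to 394) and H2-K1 181 (168 to 202). Tapbp (47.6 RPKM), H2-T23 (24.2), Psmb8 (17.4), Tap1 (11.5), Tap2 (9.73), Psmb9 (8.7) and Nlrc5 (3.2) came next, and no neighbours in this order overlapped in their ranges. The mean RPKM in BMDMs was 12.4 times that in RPE for Nlrc5, 6.11 times for Psmb9, 5.47 times for H2-D1 and 5.43 times for H2-K1. It was 4.31 times for Psmb8, 2.93 times for B2m, 2.72 times for Tap1, 2.42 times for Tap2, 1.92 times for H2-T23 and 1.21 times for Tapbp. The 2 tissues were normalized in separate tables, so these ratios are given without a test.

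**Figure D1:**
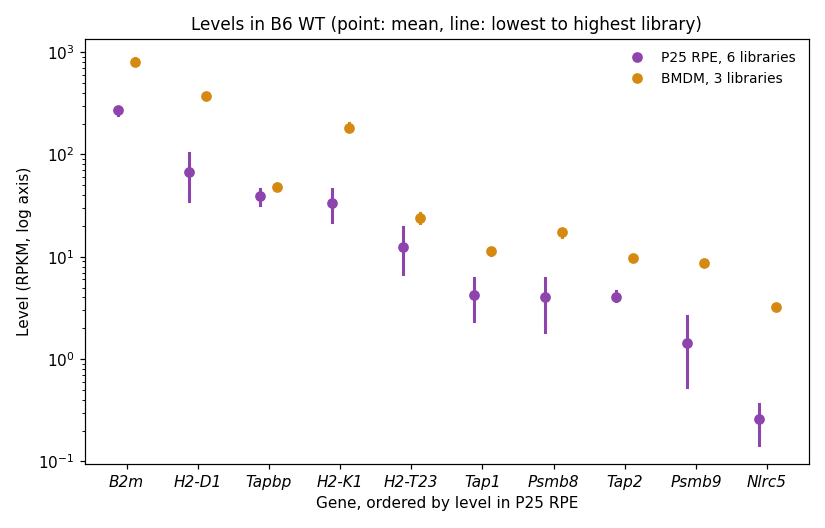
Level of the 10 class I presentation genes in B6 WT RPE (n = 6) and BMDMs (n = 3), as RPKM on a log axis; points are means and lines run from the lowest to the highest library. B2m is highest in both tissues (272 and 797 RPKM) and Nlrc5 lowest (0.258 and 3.2 RPKM).

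8 of the 10 genes lie on chromosome 17, within the major histocompatibility complex (GRCm38, GENCODE M21). In order they are Tapbp (chr17:33915899-33929292), H2-K1 (chr17:33996017-34000347), Psmb9 (chr17:34181987-34187764), Tap1 (chr17:34187553-34197225), Psmb8 (chr17:34197721-34201454), Tap2 (chr17:34203527-34216321), H2-D1 (chr17:35262730-35267499) and H2-T23 (chr17:36029773-36032855). Psmb9 and Tap1 are read from opposite strands and overlap by 212 bases, Tapbp overlaps Zbtb22, and B2m overlaps the barely expressed Patl2. Whether the counting used strand is not given in the sources used here, so reads in those overlaps are uncertain. Nlrc5 is on chromosome 8 (chr8:94434356-94527272). B2m is on chromosome 2 (chr2:122147686-122153083), inside the stretch from Thbs1 to Plcb1 (chr2:118111876-135475258) that stands here for the donor-strain DNA of the Mertk-/-V1 line. The paper names both end genes as differentially expressed in Mertk-/-V1 BMDMs, so the stretch is bounded by genes changed in these data. Reads of nearly identical class I genes can also be misplaced: 4.64% of the 100-base windows of the H2-D1 transcript and 3.93% of those of H2-T23 occur unchanged in another gene, and the share was 0.107% for Tapbp and 0 for the other 7 members.

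RefSeq promoter sequences (GRCm38.p6, 250 bases before to 50 after the start) were at hand for 8 of the 10 genes, all but Tap2 and Nlrc5. Those of the light chain, of both classical heavy chains and of Tap1 are shown 5′ to 3′ on the strand of the gene (H2-K1 has a second RefSeq start, 14 bases further on, that is not shown), because the first 3 share an arrangement that Nlrc5-dependent promoters are known for, and Tap1 shares its window with Psmb9. Capitals mark the interferon response element (GAAANNGAAA, or its shorter form GAANNGAAA, on either strand), the kappaB palindrome GGGGATTCCCC, and a spaced pair in which TGACG (the core of the X2 box) is followed after 15 to 25 bases by ATTGG (the CCAAT box read from the other strand).
B2m (chr2:122147437-122147736, + strand): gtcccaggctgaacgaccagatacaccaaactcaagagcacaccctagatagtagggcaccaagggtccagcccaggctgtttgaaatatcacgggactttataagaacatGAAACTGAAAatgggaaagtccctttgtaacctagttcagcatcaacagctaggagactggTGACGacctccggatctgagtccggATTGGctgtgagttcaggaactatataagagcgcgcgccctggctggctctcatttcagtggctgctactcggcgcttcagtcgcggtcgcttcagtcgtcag
H2-K1 (chr17:34000298-34000597, - strand): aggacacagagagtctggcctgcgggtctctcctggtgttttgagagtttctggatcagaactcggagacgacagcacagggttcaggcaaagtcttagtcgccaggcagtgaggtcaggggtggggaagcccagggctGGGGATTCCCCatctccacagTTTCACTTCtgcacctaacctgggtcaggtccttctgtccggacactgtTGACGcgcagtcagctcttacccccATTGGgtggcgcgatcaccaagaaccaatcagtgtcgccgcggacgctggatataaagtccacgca
H2-D1 (chr17:35262844-35263143, + strand): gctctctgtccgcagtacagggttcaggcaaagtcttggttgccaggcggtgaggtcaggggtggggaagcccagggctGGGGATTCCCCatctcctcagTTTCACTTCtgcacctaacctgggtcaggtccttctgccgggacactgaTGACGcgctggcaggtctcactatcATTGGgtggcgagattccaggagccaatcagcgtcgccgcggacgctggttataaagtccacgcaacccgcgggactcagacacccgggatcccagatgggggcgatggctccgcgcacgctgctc
Tap1 (chr17:34187306-34187605, + strand): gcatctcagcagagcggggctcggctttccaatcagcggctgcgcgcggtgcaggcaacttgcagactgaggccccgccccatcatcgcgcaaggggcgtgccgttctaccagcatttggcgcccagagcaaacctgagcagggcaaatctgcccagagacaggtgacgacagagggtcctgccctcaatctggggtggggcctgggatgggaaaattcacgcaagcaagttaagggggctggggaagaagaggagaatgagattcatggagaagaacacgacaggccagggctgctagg

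The spaced pair stood in B2m, H2-K1 and H2-D1, with a gap of 20 bases in all 3, and in 143 of 32851 promoters (0.435%) overall. The kappaB palindrome stood in H2-K1 and H2-D1, against 10 promoters (0.0304%) of all. GAAANNGAAA was found in B2m and H2-T23 (3.44% of all promoters) and its shorter form in H2-K1 and H2-D1 (7.52% of all, the longer form not counted). TGACG alone was in 5 of the 8 (20.8% of all) and CCAAT on either strand in 7 of the 8 (37.4% of all). The motif TTCNNNGAA (GAS) was in 1 of the 8, Psmb8 (8.3% of all). Laid on their kappaB palindromes, the H2-K1 and H2-D1 windows were identical at 176 of 240 bases (73.3%). The Psmb9 and Tap1 windows are the same DNA over 275 bases, read from opposite strands. The motifs were chosen with the sequences known, and a match in these letters is a description of the window only.

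In BMDMs, Nlrc5 had the largest difference of the 10 members in Mertk-/-V1, and was the only one of the 10 called in any comparison with B6 WT. Its normalized counts were 524.5, 569 and 568 in B6 WT, 707, 869 and 701 in Mertk-/-V1, 833, 641 and 714 in Mertk-/-V2 and 639, 579.9 and 724 in Mertk-/-V3 BMDMs. All 9 knockout libraries lay above the highest B6 WT library, and the share of all genes for which this held is not given here. Nlrc5 was higher in Mertk-/-V1 by 0.45 (SE 0.11, adjusted p = 0.0245) on the log2 scale (95% interval 0.22 to 0.68), which is a ratio of 1.36. edgeR (adjusted p = 0.0216) and DESeq2 (adjusted p = 0.0022) called it too. In Mertk-/-V2 the difference was 0.39 (SE 0.11, adjusted p = 0.0539) and in Mertk-/-V3 0.22 (SE 0.11, adjusted p = 0.339), neither called by limma. Both of these tools, run on the recovered reads, called it in Mertk-/-V2 as well (adjusted p = 0.0493 and 0.0127). The call in Mertk-/-V1 was lost without B6 WT replicate 1 (0.41, adjusted p = 0.114), B6 WT replicate 2 (0.47, adjusted p = 0.0708) or Mertk-/-V1 replicate 2 (0.35, adjusted p = 0.103). Set against the average of the other 2 lines, Mertk-/-V1 had an Nlrc5 difference of 0.14 (SE 0.09, adjusted p = 0.578), not called.

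That made 1 of 10 members called in Mertk-/-V1 BMDMs, where 7.07% of all 13420 genes tested were called and 3.92% were called higher (55.4% of the calls, and 38% under TMM scaling), and 0 of 10 in Mertk-/-V2 (4.61% of all genes) and Mertk-/-V3 (1.17%). At an unadjusted p under 0.05, limma gave 2 members in Mertk-/-V1 (23.6% of all genes), 2 in Mertk-/-V2 (21.4%) and 4 in Mertk-/-V3 (15.9%). edgeR and DESeq2 called 1 member in Mertk-/-V2, Nlrc5, and none in Mertk-/-V3. In each of the 3 lines, 8 of the 10 log2 differences were above 0, and the median difference was 0.12 for Mertk-/-V1, 0.15 for Mertk-/-V2 and 0.21 for Mertk-/-V3. Over all genes the share above 0 was 48.9%, 49.7% and 51.3%, and the median was 0.00 in each. The 3 comparisons share the same B6 WT libraries, so their directions are not independent.

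The light chain and the heavy chains gave the following values. B2m had counts of 13093, 13349.5 and 15547 in B6 WT and of 14446, 14033 and 15409.7 in Mertk-/-V1 BMDMs. It had 21090, 18389 and 12820 in Mertk-/-V2 and 16115, 15439.5 and 18952 in Mertk-/-V3. The groups overlapped in all 3 comparisons, and the differences were 0.07 (SE 0.14, adjusted p = 0.815) in Mertk-/-V1, 0.29 (SE 0.14, adjusted p = 0.246) in Mertk-/-V2 and 0.27 (SE 0.14, adjusted p = 0.374) in Mertk-/-V3. H2-K1, a classical heavy chain, had 10383, 9924.5 and 12295 in B6 WT, 12917, 12137 and 13116 in Mertk-/-V1, 13871, 13380.3 and 9520 in Mertk-/-V2 and 12708, 12221 and 13959.7 in Mertk-/-V3. The Mertk-/-V1 libraries lay in the upper part of the B6 WT range or above it. H2-D1, the other classical chain, had 19015, 18595 and 21053.5 in B6 WT and 22269.9, 20707 and 23318 in Mertk-/-V1. It had 26555, 23457 and 17457 in Mertk-/-V2 and 22976, 21749 and 25622 in Mertk-/-V3. Mertk-/-V3 lay above B6 WT without overlap for H2-D1 and for H2-T23, whose counts were 1253, 1417 and 1607 in B6 WT and 1625, 1725 and 2009 in Mertk-/-V3. In that line the differences were 0.26 (SE 0.12, adjusted p = 0.301) for H2-K1, 0.26 (SE 0.12, adjusted p = 0.296) for H2-D1 and 0.33 (SE 0.14, adjusted p = 0.264) for H2-T23. In Mertk-/-V1 the 3 heavy chains differed from B6 WT by 0.23, 0.18 and 0.17 (adjusted p = 0.25, 0.398 and 0.493), and in Mertk-/-V2 by 0.16, 0.18 and 0.19.

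In Mertk-/-V2 BMDMs, leaving out 1 library brought calls for B2m and the heavy chains that the main fit lacked. Mertk-/-V2 replicate 3 held the lowest count of this line for B2m, H2-K1, H2-D1, H2-T23, Tap1, Tap2, Tapbp and Psmb9, and the highest for Psmb8. Without it, limma called 5 members higher in Mertk-/-V2, namely B2m (0.50, adjusted p = 0.0047), H2-K1 (0.33, adjusted p = 0.0173), H2-D1 (0.35, adjusted p = 0.0128), H2-T23 (0.38, adjusted p = 0.0298) and Nlrc5 (0.40, adjusted p = 0.0494). The share of all genes called in that fit is not given here, so these 5 calls have no share to be read against. Nlrc5 was also called without Mertk-/-V2 replicate 2 (0.48, adjusted p = 0.0365). The summed count of 11 macrophage and leukocyte markers ran from 310900 to 329300 in the 3 Mertk-/-V2 libraries and from 325200 to 336300 in B6 WT.

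**Figure D2:**
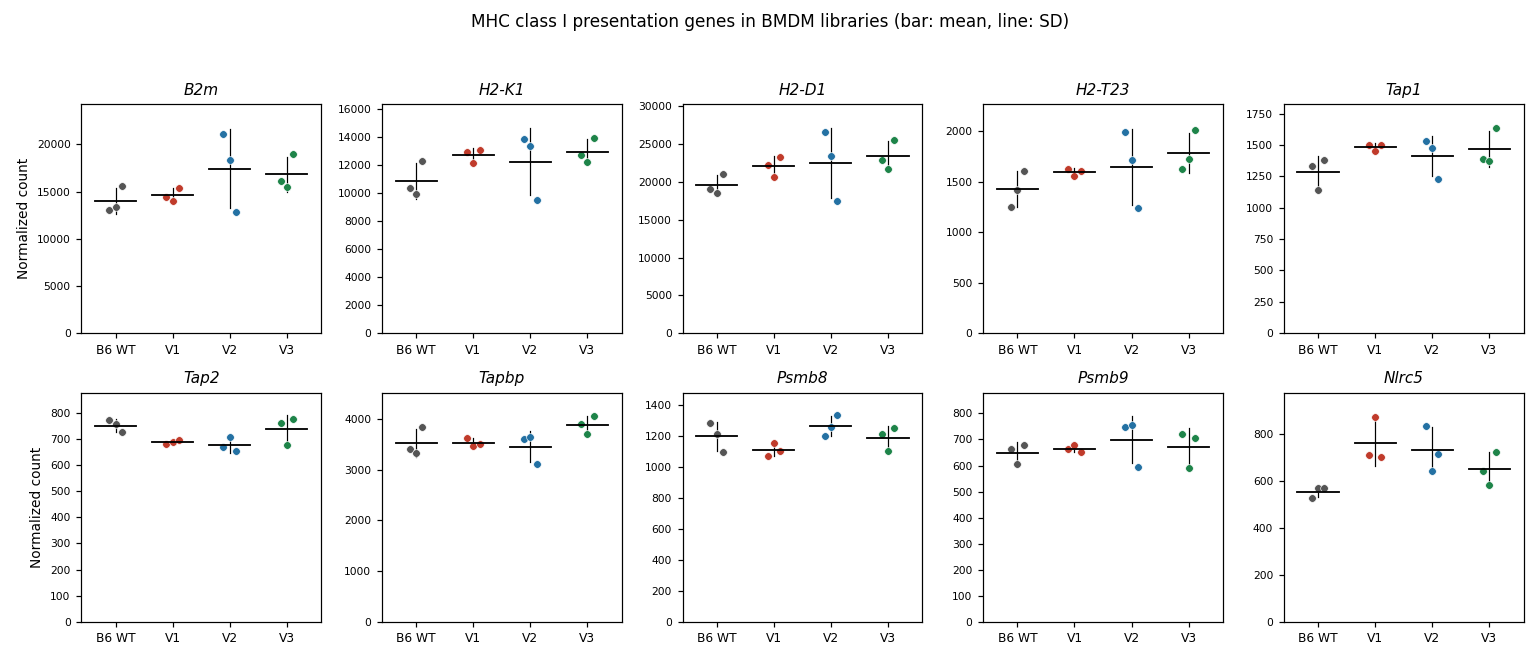
Normalized count of each class I presentation gene in every BMDM library, by genotype (3 libraries each); bars are means and lines the SD. All 9 knockout libraries lie above the 3 B6 WT libraries for Nlrc5 (524 to 569 in B6 WT), and Mertk-/-V2 replicate 3 stands below the other Mertk-/-V2 libraries for B2m and the heavy chains.

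Of the transport and loading genes, both subunits of the transporter pointed in opposite directions. Tap1 had counts of 1333, 1140.3 and 1384 in B6 WT and 1501, 1456 and 1505 in Mertk-/-V1 BMDMs, with Mertk-/-V1 above. Tap2 had 771, 756 and 725 in B6 WT, 681, 688 and 696 in Mertk-/-V1, 667, 707 and 652 in Mertk-/-V2 and 759, 676 and 775 in Mertk-/-V3. Here Mertk-/-V1 and Mertk-/-V2 both lay below B6 WT without overlap, and Mertk-/-V3 overlapped it. Neither gene was called: Tap1 differed by 0.21 (SE 0.09, adjusted p = 0.17) in Mertk-/-V1, by 0.14 in Mertk-/-V2 and by 0.19 in Mertk-/-V3, and Tap2 by -0.12 (SE 0.06, adjusted p = 0.238), -0.15 (SE 0.06, adjusted p = 0.165) and -0.03 (SE 0.06, adjusted p = 0.863). Tapasin (Tapbp) ran from 3335 to 3836 in B6 WT and from 3473 to 3628, 3112 to 3649 and 3706 to 4056 in the 3 lines, with differences of 0.00, -0.03 and 0.14. The groups did not overlap for 3 members in Mertk-/-V1 (Tap1, Tap2 and Nlrc5; 30.9% of all genes), 2 in Mertk-/-V2 (Tap2 and Nlrc5; 22.7%) and 3 in Mertk-/-V3 (H2-D1, H2-T23 and Nlrc5; 25.4%), which is near the share over all genes.

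The immunoproteasome subunits were close to B6 WT in every BMDM line. Psmb8 had counts of 1286, 1215 and 1097 in B6 WT, 1076, 1158 and 1102 in Mertk-/-V1, 1203, 1261 and 1336 in Mertk-/-V2 and 1215, 1107 and 1251 in Mertk-/-V3. Its differences were -0.11 (95% interval -0.25 to 0.04), 0.08 (-0.06 to 0.22) and -0.01 (-0.15 to 0.13). Psmb9 ran from 606 to 679 in B6 WT and from 650.1 to 679.9, 596 to 755 and 589.5 to 722 in the lines, with differences of 0.04 (-0.17 to 0.24), 0.10 (-0.10 to 0.30) and 0.05 (-0.16 to 0.25). For both genes, every group overlapped B6 WT.

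In the RPE, 0 of the 10 members were called by limma against B6 WT in Mertk-/-V1 (0.388% of all 18832 genes tested), in Mertk-/-V2 (0.069%) or in Mertk-/-V3 (0.069%). At an unadjusted p under 0.05 there was 1 member in each line, Nlrc5 every time, against 6.81%, 5.47% and 11.1% of all genes. edgeR called none, and DESeq2 called Nlrc5 in Mertk-/-V3 and no other. Above 0 were 9 of the 10 log2 differences in Mertk-/-V1 (53.8% of all genes), 7 in Mertk-/-V2 (54.2%) and 3 in Mertk-/-V3 (49.2%). The median over the members was 0.24, 0.04 and -0.18, beside 0.02, 0.02 and -0.01 over all genes.

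Nlrc5 was a low transcript in RPE and had its lowest values in B6 WT. B6 WT had counts of 79.3, 34.0, 38.9, 81.4, 69.5 and 39.2 in its 6 libraries, and Mertk-/-V1 had 77.8, 85.3, 134, 85.7, 114 and 109. Mertk-/-V2 had 90.2, 91.7 and 98.1 and Mertk-/-V3 had 90.4, 298 and 95.6. 5 of the 6 Mertk-/-V1 libraries and all Mertk-/-V2 and Mertk-/-V3 libraries lay above the highest B6 WT library, and Mertk-/-V3 replicate 2 stood far above all others. The share of all genes with the same pattern is not given here. The difference was 0.88 (SE 0.29, adjusted p = 0.42) in Mertk-/-V1, with a 95% interval of 0.25 to 1.50 and an unadjusted p of 0.00876 from limma. It was 0.79 (SE 0.36, adjusted p = 0.906) in Mertk-/-V2 (interval 0.03 to 1.55) and 1.34 (SE 0.36, adjusted p = 0.422) in Mertk-/-V3 (interval 0.58 to 2.11). Without Mertk-/-V3 replicate 2 the Mertk-/-V3 value was 0.79 (adjusted p = 0.88), whereas with it Nlrc5 was called by DESeq2 (1.52, adjusted p = 0.0265), by limma with array quality weights (2.58, adjusted p = 8.57e-07) and by limma with the replicate number as a block (1.45, adjusted p = 0.027). In this Mertk-/-V3 comparison, array quality weights called most of all genes tested, and the replicate block also called many more genes than the main fit. The main fit called 13 of 18832. The Mertk-/-V1 difference was 1.01 within replicates 1 to 3 and 0.74 within replicates 4 to 6, called in neither.

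Among the light and heavy chains, B2m was at its highest in Mertk-/-V2 as a group and at its lowest in single Mertk-/-V1 libraries. B6 WT RPE held between 5703 and 6540 counts of B2m, with a median of 6063. Mertk-/-V1 held 5886, 6786, 6108, 5578, 3684 and 4732, Mertk-/-V2 7947, 7711 and 8295 and Mertk-/-V3 4337, 8497 and 7945. Mertk-/-V2 lay above B6 WT without overlap, Mertk-/-V3 spread to both sides of it, and Mertk-/-V1 reached below it. B2m and Nlrc5 were the 2 members of Mertk-/-V2 that did not overlap B6 WT (5.66% of all genes), Nlrc5 was the 1 member of Mertk-/-V3 (4.32%), and Mertk-/-V1 had 0 (1.09%). The B2m differences were -0.19 (SE 0.16, adjusted p = 0.859) in Mertk-/-V1, 0.39 (SE 0.19, adjusted p = 0.923) in Mertk-/-V2 and 0.12 (SE 0.19, adjusted p = 0.776) in Mertk-/-V3. H2-K1 had a lowest count of 1549, a median of 2594 and a highest of 3834 in B6 WT and a lowest count of 2040, a median of 3538 and a highest of 3831 in Mertk-/-V1. It had 2488, 3566 and 4508 in Mertk-/-V2 and 2360.5, 3114 and 2036 in Mertk-/-V3. All groups overlapped, with differences of 0.36, 0.46 and -0.02 (adjusted p = 0.793, 0.952 and 0.976). For H2-D1 they were 0.24 (-0.30 to 0.79), -0.02 (-0.69 to 0.64) and -0.39 (-1.05 to 0.28), and for H2-T23 0.25, 0.03 and -0.39, with the 95% interval in parentheses for H2-D1.

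**Figure D3:**
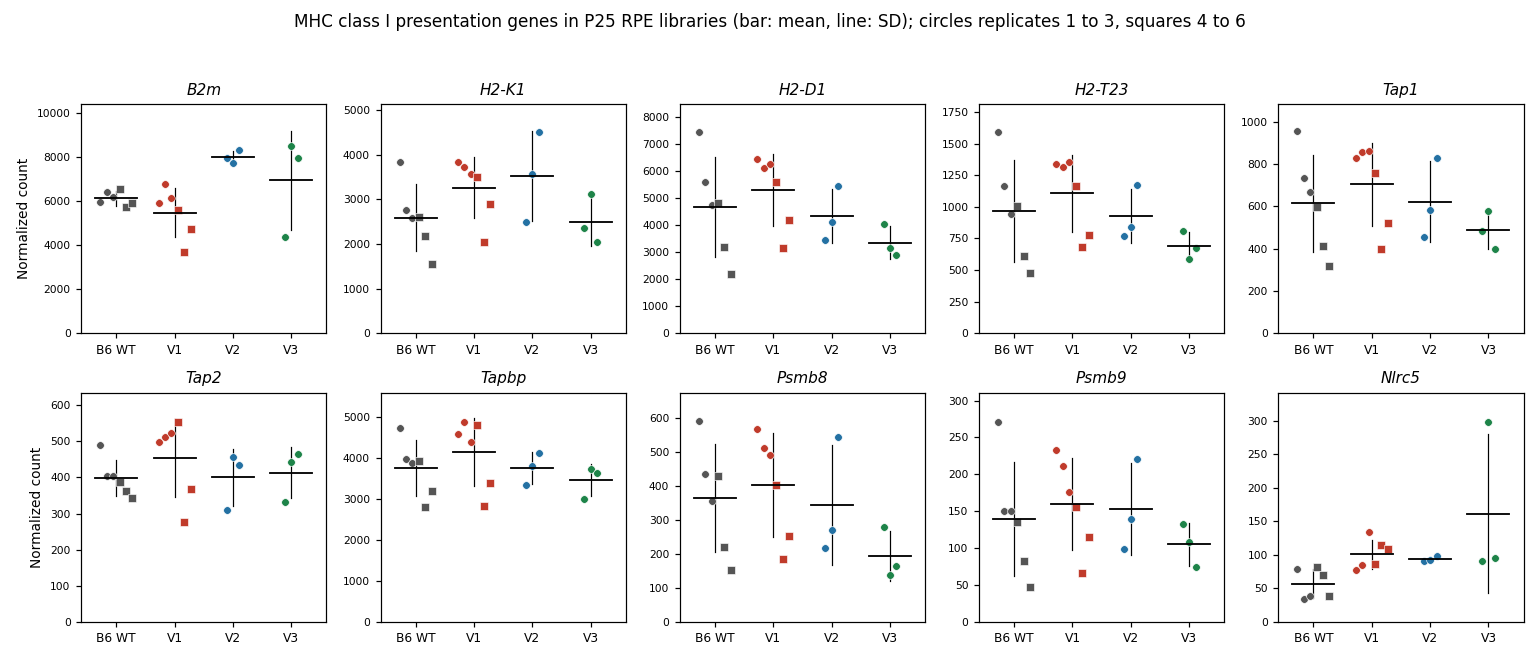
Normalized count of each class I presentation gene in every RPE library, by genotype (6, 6, 3 and 3 libraries); bars are means, lines the SD, circles replicates 1 to 3 and squares replicates 4 to 6. For Nlrc5 the B6 WT libraries end at 81.4 and Mertk-/-V3 replicate 2 reaches 298, and for most other members the squares lie low.

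The transport, loading and proteasome genes spread widely within each RPE genotype. Tap1 ranged over 317 to 956 in B6 WT, 399.7 to 864.5 in Mertk-/-V1, 455 to 831 in Mertk-/-V2 and 398 to 579 in Mertk-/-V3, and Tap2 over 342 to 490.5, 276 to 554, 309 to 456 and 332 to 466. Tapbp ranged over 2793 to 4733, 2825 to 4865, 3339 to 4124 and 3001 to 3720 in the same order. Every group of these 3 genes overlapped B6 WT, and their differences lay between -0.26 (Tap1 in Mertk-/-V3) and 0.23 (Tap1 in Mertk-/-V1). Psmb8, a catalytic subunit, had a lowest count of 152, a median of 392.5 and a highest of 590.3 in B6 WT and a lowest count of 185, a median of 448 and a highest of 566 in Mertk-/-V1. It had 218, 269.9 and 544.5 in Mertk-/-V2 and 279, 138 and 165 in Mertk-/-V3. Mertk-/-V3 gave the largest negative value of any member, -0.83 (SE 0.44, adjusted p = 0.46) with a 95% interval of -1.76 to 0.10, and its libraries overlapped those of B6 WT. Psmb9 differed by 0.27, 0.25 and -0.25 in the 3 lines, with SEs of 0.38, 0.47 and 0.47.

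**Figure D4:**
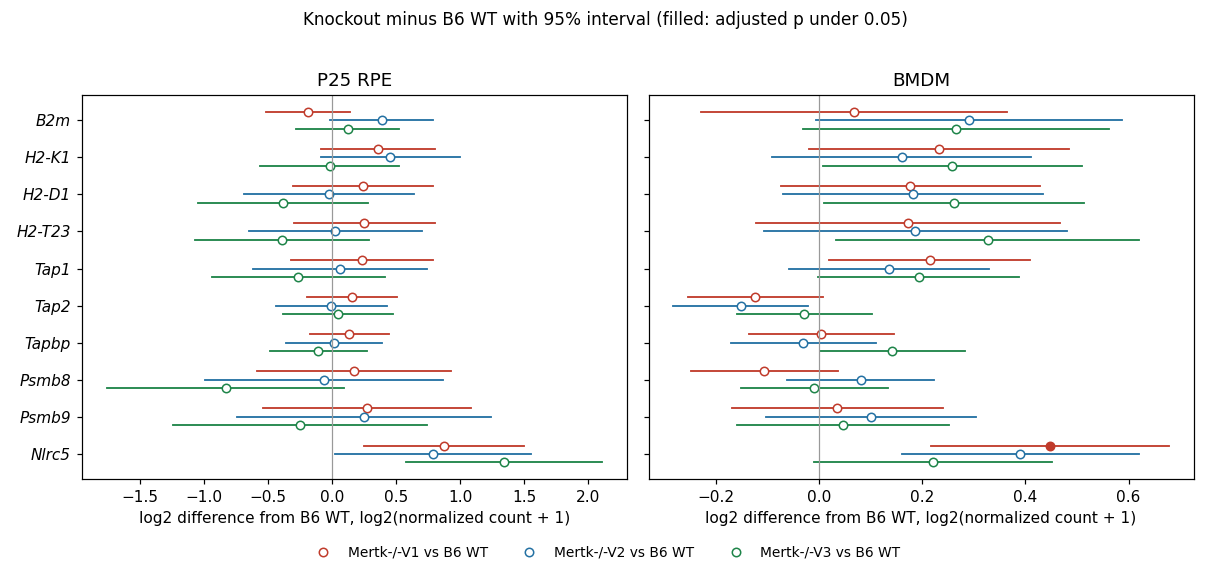
Difference from B6 WT of the 10 class I presentation genes in each Mertk knockout, in RPE and BMDMs, as log2(normalized count + 1) with the 95% interval of limma; filled points were called. The single filled point is Nlrc5 in Mertk-/-V1 BMDMs (0.45), and the RPE intervals are wider than those of BMDMs.

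B2m is the 1 member in the Thbs1 to Plcb1 stretch of chromosome 2, so that Mertk-/-V1 was also set directly against the average of the other 2 lines, which asks whether the line with donor-strain DNA stands apart from those without it. In RPE, B2m had a difference of -0.44 (SE 0.16, 95% interval -0.77 to -0.11, unadjusted p = 0.0118, adjusted p = 0.411 by limma). It was the 1 member with an unadjusted p under 0.05 (9.56% of all genes), and 0 members were called (0.207% of all genes). limma called it without Mertk-/-V3 replicate 1, whose B2m count was 4337 and whose rod markers summed to 371500, the highest of that line (-0.60, adjusted p = 0.0359), and with array quality weights (-0.45, adjusted p = 0.00143). These weights called 6 members in this comparison and the replicate block 5, B2m not among the latter (-0.32, adjusted p = 0.188). The share of all genes called by the weights or by the block is not given here, so these counts have no share beside them. With Mertk-/-V1 replicates 1 to 3 alone the difference was -0.22 (adjusted p = 0.406), and with replicates 4 to 6 alone -0.66 (adjusted p = 0.141). In BMDMs the same comparison gave -0.21 (SE 0.12, adjusted p = 0.51), with 0 members called (0.991% of all genes) and Psmb8 the 1 member with an unadjusted p under 0.05 (11.8% of all genes), at -0.14 (SE 0.06, adjusted p = 0.363). B2m was called there without Mertk-/-V2 replicate 3 (-0.31, adjusted p = 0.0361). edgeR and DESeq2 called 0 members in either tissue. Between Thbs1 and Plcb1, 10 of 230 genes tested in RPE (4.35%) and 38 of 187 in BMDMs (20.3%) were called in this comparison. Against B6 WT, B2m differed in Mertk-/-V1 by -0.19 in RPE (95% interval -0.52 to 0.14) and by 0.07 in BMDMs (-0.23 to 0.36), where 6.09% and 26.7% of the genes of the stretch were called.

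Whether a knockout effect differed between the tissues was tested in 1 model over both, and 0 members were called by limma for Mertk-/-V1 (0.376% of 12513 genes), Mertk-/-V2 (0.12%) or Mertk-/-V3 (0.04%). At an unadjusted p under 0.05 there was no member for Mertk-/-V1 (8.79% of all genes) or Mertk-/-V2 (10.7%), and Nlrc5 alone for Mertk-/-V3 (5.84%), whose effect was larger in RPE than in BMDMs by 1.12 (SE 0.45, adjusted p = 0.773). In Mertk-/-V1 the Nlrc5 effects were 0.88 in RPE and 0.45 in BMDMs, a difference of 0.43 (SE 0.41, adjusted p = 0.883). For B2m the difference between tissues was -0.25 for Mertk-/-V1, 0.10 for Mertk-/-V2 and -0.14 for Mertk-/-V3. edgeR and DESeq2 called 0 members for each of the 3 lines.

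More members were called between replicates 1 to 3 and replicates 4 to 6 of the RPE, than between any genotypes. Only B6 WT and Mertk-/-V1 have both sets, which also differed in depth (23417838 to 34124049 against 14137666 to 20779930 reads). What the numbers stand for is not given in the labels. The sets were compared because earlier work on these data had found that they differ, so the adjusted p-values are not those of a split chosen beforehand. With genotype in the model, limma called 7 of the 10 members lower in replicates 4 to 6, against 21.8% of all genes called lower and 40.8% called in either direction. Psmb9 had 271, 150.1 and 151 in B6 WT replicates 1 to 3 against 135, 82.6 and 47.1 in replicates 4 to 6, and 233, 211 and 175 against 156, 65.6 and 115 in Mertk-/-V1. Psmb8 had 590.3, 435 and 356 in B6 WT replicates 1 to 3 against 429, 219 and 152 in replicates 4 to 6, and 566, 512 and 492 against 403, 185 and 254 in Mertk-/-V1. Replicates 5 and 6 were the lowest of their genotype for both subunits, while replicate 4 lay within or below the first set.

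The set differences were largest for the immunoproteasome, at -1.06 (SE 0.28, adjusted p = 0.0128) for Psmb9 and -0.93 (SE 0.25, adjusted p = 0.0139) for Psmb8. H2-T23 followed with -0.76 (SE 0.19, adjusted p = 0.0117), Tap1 with -0.76 (SE 0.18, adjusted p = 0.00901) and H2-D1 with -0.72 (SE 0.19, adjusted p = 0.0144). H2-D1 had 7443, 5574 and 4745 in B6 WT replicates 1 to 3 against 4789.9, 3186 and 2184 in replicates 4 to 6, and 6436.5, 6086 and 6251.5 against 5578, 3128 and 4195 in Mertk-/-V1. The 2 other called members were H2-K1 (-0.49, SE 0.16, adjusted p = 0.0277) and Tapbp (-0.36, SE 0.12, adjusted p = 0.039). H2-K1 lost its call without any 1 of 4 of the 12 libraries (B6 WT replicate 1 or 6, Mertk-/-V1 replicate 1 or 5, adjusted p from 0.0525 to 0.0618), and Tapbp with edgeR (adjusted p = 0.0573), with no filter on low values (adjusted p = 0.0623) or without any 1 of 9 libraries (B6 WT replicate 1, 2, 5 or 6, Mertk-/-V1 replicate 1, 2, 3, 5 or 6, adjusted p from 0.0535 to 0.0898). Tap2 (-0.33, SE 0.14, adjusted p = 0.0815), B2m (-0.24, SE 0.11, adjusted p = 0.10) and Nlrc5 (0.22, SE 0.25, adjusted p = 0.503) were not called. Tap2 was called with array quality weights (-0.26, adjusted p = 0.041) and without Mertk-/-V1 replicate 4 (-0.44, adjusted p = 0.00974). With both genotypes pooled, the 2 sets overlapped in every member, as in all but 12.8% of genes. Within each genotype taken alone, the sets did not overlap for Psmb9 and Tap1, and the share of all genes was not counted there. By limma, 8 members had an unadjusted p under 0.05 (51.4% of all genes). The median over the members was -0.60, against -0.01 over all genes. Within B6 WT alone or Mertk-/-V1 alone, 0 genes of the table were called by limma (adjusted p from 0.0753 to 0.222 for these 7 members). The values were -1.17 and -0.95 for Psmb9, -0.89 and -0.97 for Psmb8, -0.86 and -0.65 for Tap1, and -0.85 and -0.58 for H2-D1, while B2m had -0.03 within B6 WT and -0.44 within Mertk-/-V1.

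**Figure D5:**
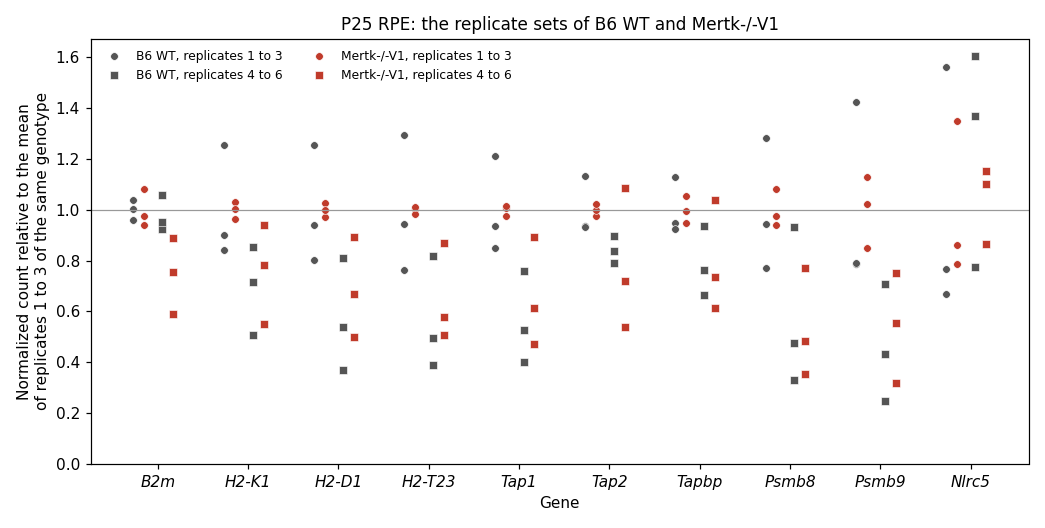
Normalized count of each class I presentation gene in RPE replicates 4 to 6 relative to the mean of replicates 1 to 3 of the same genotype (B6 WT and Mertk-/-V1), with replicates 1 to 3 drawn beside them. Psmb8 and Psmb9 reach the lowest ratios, and Nlrc5 libraries of the second set lie on both sides of 1.

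Other transcripts moved with the sets. All 7 rod markers were higher in replicates 4 to 6 (median log2 difference 2.12), and their sum was 29020 to 107500 in B6 WT replicates 1 to 3 and 118400 to 307900 in replicates 4 to 6, and 54880 to 82720 and 123300 to 793000 in Mertk-/-V1. 7 of 10 RPE markers were lower, as were 3 of 11 macrophage and leukocyte markers, whose sum was 10830 to 13330 and 8020 to 9953 in B6 WT and 10720 to 12540 and 7187 to 10790 in Mertk-/-V1. 2 of 7 endothelial markers were higher. Markers of T and natural killer cells stayed at a summed count of at most 41.04 in any RPE library. The part of these cells and of depth in the class I values was not tested. For Mertk-/-V2 and Mertk-/-V3 there are only 3 RPE libraries each, numbered 1 to 3, so set and genotype cannot be told apart where these lines are compared with all 6 B6 WT libraries. In depth, Mertk-/-V2 (29522487 to 33169749 reads) lay within the range of replicates 1 to 3 of the other genotypes. Mertk-/-V3 (16476097 to 21573517 reads) lay below that range. Their rod markers summed to 124200 to 209400 in Mertk-/-V2 and 50780 to 371500 in Mertk-/-V3. 

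Which B6 WT set was used turned the direction of most uncalled differences in Mertk-/-V2 and Mertk-/-V3 RPE, in fits of the knockout with 1 set that were chosen after seeing the data. Against B6 WT replicates 1 to 3, 3 of the 10 members were above 0 in Mertk-/-V2 and 2 in Mertk-/-V3, and against replicates 4 to 6 the counts were 10 and 9. H2-D1 went from -0.45 to 0.40 in Mertk-/-V2 and from -0.81 to 0.04 in Mertk-/-V3, and Psmb8 from -0.50 to 0.39 and from -1.28 to -0.39. Nlrc5 was above 0 against either set, at 0.97 and 0.61 in Mertk-/-V2 and at 1.52 and 1.17 in Mertk-/-V3, and so was B2m, at 0.37 and 0.40 in Mertk-/-V2 and at 0.10 and 0.14 in Mertk-/-V3. limma called 0 members in each of these fits (adjusted p = 0.0639 with the knockout and replicates 1 to 3 alone and 0.252 with replicates 4 to 6 for B2m in Mertk-/-V2, and 0.137 and 1.00 for Nlrc5 in Mertk-/-V3).

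Leukocyte markers were also called higher by limma in Mertk-/-V1 RPE for 3 of 11 genes. These were the Fc receptor gene Fcgr1 (1.13, SE 0.18, adjusted p = 0.00506) and the complement genes C1qa (1.04, SE 0.21, adjusted p = 0.0346) and C1qb (1.02, SE 0.17, adjusted p = 0.00977). At an unadjusted p under 0.05, limma gave 8 of the 11 higher, and 10 had a log2 difference above 0 (median 0.65). Over all 18832 genes tested, 54 were called higher and 623 were higher at an unadjusted p under 0.05. In Mertk-/-V2 RPE 5 of the 11 markers were higher at that threshold and 10 above 0, and in Mertk-/-V3 4 and 6, with 0 called. The sum of the 11 markers overlapped, at 8020 to 13330 in B6 WT and 7187 to 12540 in Mertk-/-V1, with 9938 to 12120 in Mertk-/-V2 and 6979 to 12600 in Mertk-/-V3. Of the 10 RPE markers, 0 were called, 5 were lower at an unadjusted p under 0.05 and 1 had a log2 difference above 0 (median -0.53), and their sum was 148900 to 447700 in Mertk-/-V1 against 368700 to 621000 in B6 WT. Of the 5 fibroblast markers, 0 were called, 2 were higher at an unadjusted p under 0.05 and 5 had a log2 difference above 0 (median 0.41), with sums of 23160 to 38330 in Mertk-/-V1 and 17290 to 25810 in B6 WT. The part of these cells in the class I values was not tested.

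Across libraries, most of the members varied together, with Nlrc5 apart in RPE and Psmb8, Tap2 and Nlrc5 least like the rest in BMDMs. Over the 18 RPE libraries, the deviations from the genotype mean of H2-D1 correlated with those of H2-T23 (Pearson r = 0.98) and Psmb9 (0.979), while Nlrc5 had r between -0.086 and 0.3 with the other 9 members. B2m had r = 0.729 with Tap2 but 0.269 with H2-D1. Over the 12 BMDM libraries, B2m correlated with H2-D1 (0.988), H2-K1 (0.963) and H2-T23 (0.957), Psmb8 ran against H2-K1 (-0.507), and Nlrc5 had r between 0.142 and 0.385. Libraries share their depth, size factor and cell makeup across genes, and these values are a description only.

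The genes outside the 10 whose levels were most like the mean z-score of the members were Trim12a (r = 0.916), Parp9 (0.909), Parp12 (0.904), Unc93b1 (0.903) and Gbp2 (0.902) over the 18 RPE libraries. Over the 12 BMDM libraries they were Oasl2 (0.962), Sp100 (0.951), Lgals3bp (0.942), Fcgr1 (0.932) and Ifi27l2a (0.93). Of the members, which are part of that mean, Tap1 was closest to it in RPE (0.969) and H2-D1 in BMDMs (0.943). Farthest were Nlrc5 in RPE (0.171) and Psmb8 in BMDMs (-0.06), with Tap2 at 0.194 and Nlrc5 at 0.433.

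In the wider pathway, the genes named as called between genotypes were all in Mertk-/-V1 and Mertk-/-V2 BMDMs. In Mertk-/-V1 RPE, no gene was called by limma among 11 tested of 16 listed heavy chain and class I-like genes, 10 peptide loading and trimming genes or 10 proteasome genes. In Mertk-/-V2 and Mertk-/-V3 RPE none of these genes was called. In Mertk-/-V1 BMDMs, 2 of 10 loading and trimming genes were lower, the oxidoreductase of the loading complex Pdia3 (-0.25, SE 0.04, adjusted p = 0.00546) and the chaperone Hspa5 (-0.23, SE 0.04, adjusted p = 0.00763). So were 2 of 10 proteasome genes, Psma1 (-0.20, SE 0.04, adjusted p = 0.0192) and the assembly factor Pomp (-0.25, SE 0.05, adjusted p = 0.0118). In Mertk-/-V2 BMDMs the same 4 were lower, with the aminopeptidase Npepps (-0.22, SE 0.05, adjusted p = 0.0273) as the fifth, and in Mertk-/-V3 BMDMs none was called. No heavy chain or class I-like gene was called in any BMDM line. Over all 13420 genes tested, 423 were called lower in Mertk-/-V1 BMDMs, 317 in Mertk-/-V2 and 85 in Mertk-/-V3.

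Between the RPE replicate sets the wider pathway moved more often. In replicates 4 to 6, 8 of 10 proteasome genes were lower, among them the activator subunit Psme2 (-0.75, SE 0.15, adjusted p = 0.00735) and the third immunoproteasome subunit, Psmb10 (-0.66, SE 0.12, adjusted p = 0.00725). Of the regulators 4 of 9 were lower, namely Irf1 (-0.87, SE 0.24, adjusted p = 0.0164), Irf2 (-0.31, SE 0.10, adjusted p = 0.0256), Ifngr1 (-0.60, SE 0.14, adjusted p = 0.00867) and Ifngr2 (-0.57, SE 0.12, adjusted p = 0.0077). 4 of 10 loading and trimming genes were lower (Pdia3, Tapbpl, Erap1 and Hspa5). Of the 11 heavy chain and class I-like genes, H2-T22 (-0.58, SE 0.10, adjusted p = 0.00724) and Mr1 (-0.60, SE 0.15, adjusted p = 0.0114) were lower and H2-K2 (0.78, SE 0.15, adjusted p = 0.00733) was higher. These shares stand beside 21.8% of all genes called lower and 40.8% called in either direction.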

How the data were processed

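RNA-seq of polyadenylated RNA (150 base paired-end reads) from 18 RPE and 12 BMDM libraries was used. Reads were trimmed and aligned by the authors with STAR to GRCm38, and the deposited tables hold gene signal values, read counts divided by DESeq2 size factors, in 1 table per tissue; the read counter, the annotation release and strandedness are not given in the sources used here. Whole reads were recovered from the step of each column (100% of values whole within 0.01), which gave the depth. Each tissue was fitted with limma 3.58.1 (R 4.3.3) on log2(value + 1) for genes whose mean reached 10, with genotype as group, the difference between tissues in 1 model over both, and the RPE replicate sets (both genotypes that have them) with genotype as covariate. P-values were adjusted by Benjamini-Hochberg over all genes tested. The script was tested on simulated data. Alternatives were edgeR 4.0.16 and DESeq2 1.42.0 on the recovered reads, TMM scaling, another pseudocount, no filter, array weights, a replicate block, a log2 fold threshold of 1.25, and leaving out each library. In Mertk-/-V1 RPE, same-numbered libraries deviated together (r = 0.119 to 0.724 over 6 pairs). The B6 WT library of the same number was the best match for 2 of the 6, and such pairs also share a replicate set. The block changed no member's call in Mertk-/-V1 RPE. The 10 genes, all lists and the comparison of the RPE replicate sets were chosen with earlier results of these data known. Every sample is a separate animal per the study's methods. Genes of the pathway lists are named where called between genotypes, except 1 called regulator, which is not reported here.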

Additional observations from a re-analysis of the deposited data

How the results depend on the processing

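Most results kept their side of the threshold. Of 2330 recomputed member differences, 2242 stayed on it, 33 lost and 55 gained a call, no called value changed direction, and 143 that were never called changed sign. Counts of members called that moved by over 1.5 times, or from or to 0, were as follows. For Mertk-/-V3 against B6 WT in RPE there were 1 with DESeq2, 5 with array weights and 5 with the replicate block, and for Mertk-/-V1 against the other lines in RPE 6 with array weights and 5 with the replicate block. Array weights also called 12592 of 18832 genes in the first of these comparisons, and the block 5619. In BMDMs, Mertk-/-V1 against B6 WT gave 0 with the fold threshold, 3 with array weights and 0 with the replicate block (Nlrc5 adjusted p = 0.056), Mertk-/-V2 1 with edgeR, 1 with DESeq2 and 1 with array weights, and Mertk-/-V3 6 with array weights. For the replicate sets in RPE there were 0 with the fold threshold and, in fits chosen after seeing the data, 0 with B6 WT libraries only and 0 with Mertk-/-V1 libraries only, beside smaller shifts from 7 members to 6 with edgeR, 6 with no filter and 8 with array weights. For the difference between tissues, array weights gave 1 in Mertk-/-V1 and 6 in Mertk-/-V3, and the replicate block 5 in Mertk-/-V3. For the other fits with array weights or the block, the share of all genes called is not given here. The cause was not tested. Leaving out 1 library gave 0 to 1 members for Mertk-/-V1 against the other lines in RPE and in BMDMs, 0 to 1 for Mertk-/-V1 and 0 to 5 for Mertk-/-V2 against B6 WT in BMDMs, and 5 to 8 for the sets. Outside Mertk-/-V1 RPE, the libraries share only a number (r of the pairs from -0.328 to 0.363), and the block moved no other count of members called. Reads per library limit Nlrc5 most, at 34 to 81.4 normalized counts in B6 WT RPE.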
